A study of Mus musculus with 8 samples.

Results

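The ADAMTS genes described here encode 10 secreted metalloproteases of the aggrecanase, procollagen peptidase and related groups: Adamts1, Adamts2, Adamts4, Adamts5, Adamts9, Adamts10, Adamts12, Adamts14, Adamts15 and Adamts17. They were chosen by name and found by mouse Ensembl identifier, 10 of 52636 genes in the deposited tables. RNA-seq of knee articular cartilage was used to ask how the loss of OSCAR, the osteoclast-associated receptor, alters gene expression in surgically induced osteoarthritis. The libraries came from male C57BL/6J wild-type (WT) mice and male OSCAR-deficient mice (Oscar-/-, strain C57BL/6). In both genotypes the joint was either destabilized by cutting the attachment of the medial meniscus (DMM surgery, a model of osteoarthritis) or sham-operated, and tissue was taken 2 or 4 weeks later. Surgery was done at 10 to 12 weeks of age, and the records give 10 weeks as the age of the mice. Each of the 8 libraries held the combined RNA of 10 articular cartilages, with 1 library for each genotype, surgery and week, so that every condition is a single library at each week and a ratio within a week has no replicate check.

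ADAMTS proteases (a disintegrin and metalloproteinase with thrombospondin motifs) are secreted as zymogens and cut large molecules of the extracellular matrix. Adamts4 and Adamts5 encode the principal aggrecanases, which cleave aggrecan, the proteoglycan that lets cartilage bear load, and their activity is a recognized step in the loss of cartilage in osteoarthritis. Adamts1, Adamts9 and Adamts15 encode related proteoglycanases that act on versican and also on aggrecan. Adamts2 and Adamts14 encode procollagen N-propeptidases, which remove the amino-terminal propeptide of fibrillar procollagens. Adamts10 and Adamts17 encode proteins tied to fibrillin microfibrils, and Adamts12 encodes a protease that can degrade cartilage oligomeric matrix protein.

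The catalytic zinc site is one of the features that these genes have in common. Its coding sequence also varies between them in a way that the choice of genes did not use. It is shown here for all 10 genes, read from the longest coding transcript of each in GENCODE M21 (GRCm38). Each line is 11 codons of joined coding sequence, 5′ to 3′, with 5 codons in capitals: the zinc-binding and catalytic codons (the first, the second, the fifth and the last) and codon 8 of the site, which differs between genes. In every gene the site crosses a splice junction, so the genome interval given after the sequences includes an intron.
Adamts1: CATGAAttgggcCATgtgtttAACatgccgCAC
Adamts4: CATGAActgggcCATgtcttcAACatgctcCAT
Adamts9: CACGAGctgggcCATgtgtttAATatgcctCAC
Adamts15: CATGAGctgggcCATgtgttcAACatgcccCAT
Adamts5: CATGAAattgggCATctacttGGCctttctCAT
Adamts2: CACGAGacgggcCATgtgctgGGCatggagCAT
Adamts14: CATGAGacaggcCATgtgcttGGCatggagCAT
Adamts10: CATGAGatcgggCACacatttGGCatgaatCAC
Adamts12: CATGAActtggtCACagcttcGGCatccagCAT
Adamts17: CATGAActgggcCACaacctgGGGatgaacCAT

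Codon 8 was AAC or AAT in 4 genes, Adamts1, Adamts4, Adamts9 and Adamts15, and GGC or GGG in the other 6. The search for the site allowed only asparagine or glycine at that codon. The other 6 genes shared 19 to 30 of the 33 bases in their 15 pairs, with a median of 22. The 4 genes with AAC or AAT shared 25 to 30 in their 6 pairs. Adamts5, the other principal aggrecanase, shared 18 to 20 bases with those 4 genes, within the 17 to 23 of all 24 pairs across the codon groups. The procollagen peptidases Adamts2 and Adamts14 shared 30 of 33 bases. On the minus strand lay the sites of Adamts1 (chr16:85799191-85799545, exons 3 and 4), Adamts5 (chr16:85878015-85887826, exons 2 and 3), Adamts9 (chr6:92905285-92908493, exons 8 and 9), Adamts14 (chr10:61225465-61227123, exons 7 and 8) and Adamts15 (chr9:30911255-30911690, exons 2 and 3). On the plus strand lay those of Adamts2 (chr11:50775403-50776134, exons 7 and 8), Adamts4 (chr1:171253210-171253915, exons 3 and 4), Adamts10 (chr17:33538157-33538279, exons 9 and 10), Adamts12 (chr15:11241529-11255564, exons 7 and 8) and Adamts17 (chr7:66968898-67002473, exons 8 and 9). Adamts1 and Adamts5 are separate genes on the same stretch of chromosome 16, at chr16:85793827-85803113 and chr16:85856173-85901828.

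The libraries held between 13189181 and 18533609 expected counts. Oscar had 42 to 118 expected counts in the WT libraries and 0 in each Oscar-/- library, which allows up to 3 counts. Defining cartilage genes were read in all libraries, with Col2a1 at 59.5 to 209 TPM (RSEM's transcript level, set per length and to a fixed library total) and Acan at 19.3 to 68.9 TPM, but the 14 chondrocyte markers made up only 0.114% to 0.323% of all TPM. Markers of red blood cell precursors made up 26.6% to 37.9% and those of neutrophils 6.74% to 10.9%, against labels that name articular cartilage. The WT sham library of 2 weeks had the highest hemoglobin share, 37.7%, and the lowest TPM of all 8 libraries for 63.3% of expressed genes, against 18.4% on TMM-scaled CPM (counts relative to the library total), a scale that sets the bulk of genes level between libraries. By the lane numbers in the deposited files all libraries of 2 weeks shared a lane, and at 4 weeks WT and Oscar-/- libraries were on different lanes, so that lane and genotype cannot be told apart at 4 weeks.

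Adamts10 and Adamts2 were the most abundant of the 10 genes in every library, and the aggrecanase genes were low. The order by median TPM was Adamts10 (17.4 TPM), Adamts2 (7.75), Adamts5 (2.17), Adamts1 (1.89), Adamts9 (1.81), Adamts14 (0.785), Adamts4 (0.335), Adamts15 (0.285), Adamts12 (0.160) and Adamts17 (0.105). Adamts10 was above Adamts2, and Adamts2 above Adamts5, in 8 of 8 libraries with ranges that did not overlap. Adamts1 was above Adamts9 in only 4 of 8 libraries, and Adamts4 was above Adamts15 in 6, so these neighbours did not differ beyond their spread. Adamts9 was above Adamts14, and Adamts14 above Adamts4, in 8 of 8 libraries, while Adamts5 above Adamts1, Adamts15 above Adamts12 and Adamts12 above Adamts17 each held in 7. From Adamts5 downwards the ranges of all neighbours overlapped between libraries. Expressed genes were protein-coding genes with a TPM above 1 in at least 1 library, 12538 in all. Of the 10 ADAMTS genes 6 passed this filter, Adamts14 only through the WT DMM library of 4 weeks (1.33 TPM, against 0.44 to 0.96 in the other 7), while Adamts4, Adamts12, Adamts15 and Adamts17 did not and were tested only in a fit without the filter, on 17354 genes.

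**Figure D1:**
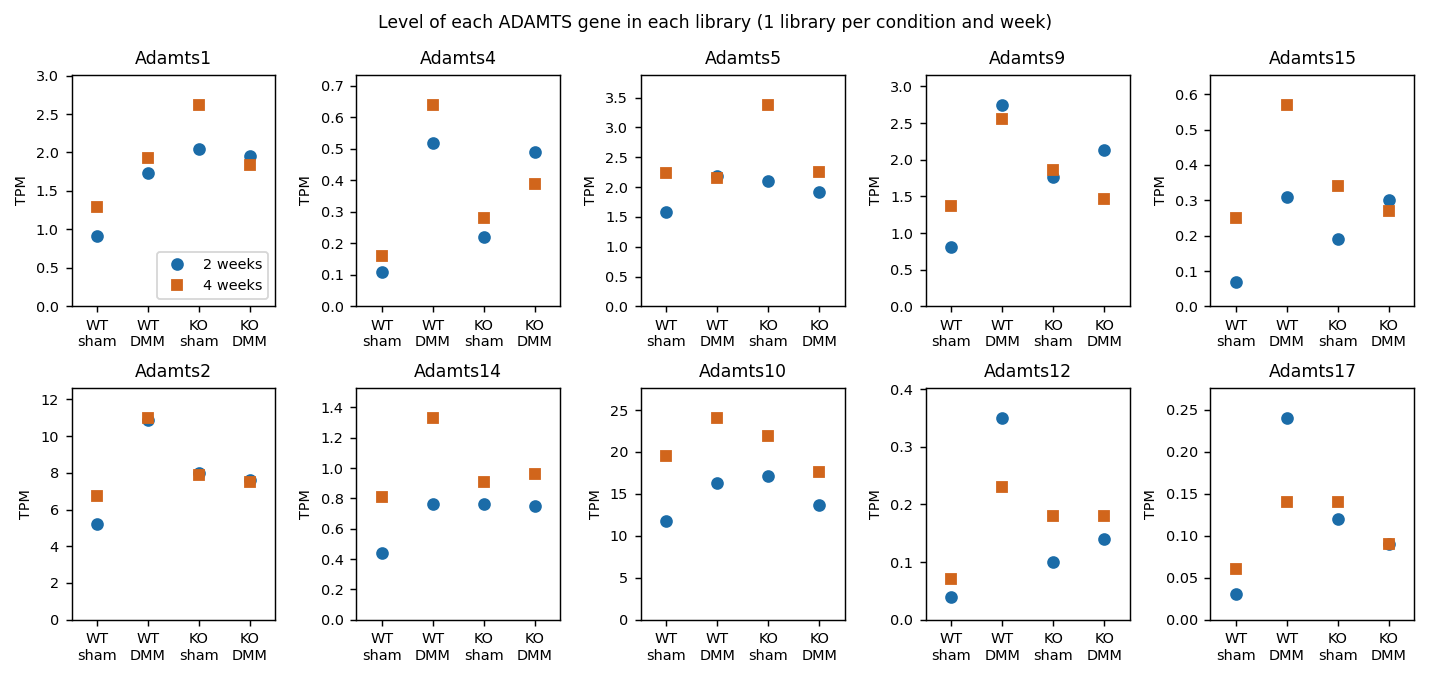
TPM of each of the 10 ADAMTS genes (linear axes that start at 0) by genotype and surgery, with circles for 2 weeks and squares for 4 weeks, each point 1 library of 10 combined cartilages. The WT sham library of 2 weeks is the lowest point in 10 of 10 panels, and a WT DMM library is the highest in 8.

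Adamts4, a principal aggrecanase, went in WT from 0.11 TPM in the sham library to 0.52 after DMM at 2 weeks and from 0.16 to 0.64 at 4 weeks. The Oscar-/- pairs of sham and DMM were 0.22 and 0.49 TPM, then 0.28 and 0.39. Both DMM libraries were above both sham libraries in each genotype, on 9 to 44 expected counts per library. Without the TPM filter Adamts4 rose after DMM surgery in WT by 2.01 on the log2 scale (SE 0.37, adjusted p = 0.00281 by edgeR's quasi-likelihood test with Benjamini-Hochberg adjustment). In Oscar-/- cartilage the difference was 0.93 (SE 0.35, adjusted p = 0.325 by edgeR), and the difference between the genotypes was -1.08 (SE 0.52, adjusted p = 0.258 by edgeR). The WT call was lost without either WT DMM library, where edgeR gave adjusted p = 0.0624 (2 weeks left out) and 0.0709 (4 weeks left out). Neither limma on log2(TPM + 1) nor edgeR without the week term made that call (adjusted p = 0.0811 and 0.0591). The gene is ENSMUSG00000006403 (chr1:171250421-171260637, plus strand).

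Adamts5, the other principal aggrecanase, did not follow Adamts4. WT cartilage held 1.58 TPM (sham) and 2.18 (DMM) at 2 weeks, then 2.23 and 2.15 at 4 weeks. The Oscar-/- values were 2.11 TPM (sham) and 1.92 (DMM), followed by 3.38 and 2.25 at the later week. The WT libraries overlapped between surgeries, and the highest value was that of Oscar-/- sham at 4 weeks. In WT the log2 difference after DMM was 0.01 (SE 0.16, adjusted p = 0.975 by edgeR), with a sign that turned under 5 of 14 alternatives. In Oscar-/- cartilage it was -0.28 (SE 0.15, adjusted p = 0.520 by edgeR), and between genotypes after sham surgery 0.42 (SE 0.16, adjusted p = 0.193 by edgeR). No comparison of Adamts5 passed the threshold in edgeR or limma. None passed in DESeq2 either, but it gave no adjusted p for Adamts5 between the genotypes after DMM. The counts, 227 to 393 per library, were higher than those of Adamts4 in all libraries.

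Adamts1, a proteoglycanase gene (ENSMUSG00000022893), was at 0.92 TPM (sham) and 1.73 (DMM) in WT at 2 weeks, then 1.29 and 1.93 at 4 weeks. Oscar-/- cartilage held 2.05 TPM (sham) and 1.96 (DMM) at 2 weeks, and 2.62 and 1.84 at 4 weeks. Both WT sham libraries were below the other 6. With the TPM filter Adamts1 alone of the ADAMTS genes passed the threshold between the genotypes after sham surgery. It was higher in Oscar-/- cartilage by 1.09 on the log2 scale (SE 0.17, adjusted p = 0.0121 by edgeR). Against WT sham the WT DMM libraries were higher by 0.62 (SE 0.17, adjusted p = 0.0630 by edgeR), and 0.61 with adjusted p = 0.0492 without the TPM filter. In Oscar-/- cartilage DMM and sham differed by -0.26 (SE 0.16, adjusted p = 0.556 by edgeR). The genotype difference after sham was lost without either Oscar-/- sham library, with adjusted p = 0.0649 without that of 2 weeks and 0.107 without that of 4 weeks in edgeR.

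Adamts9, which encodes a versicanase (ENSMUSG00000030022, chr6:92772699-92943492), went in WT from 0.81 TPM after sham to 2.75 after DMM at 2 weeks, and from 1.37 to 2.55 at 4 weeks. For Oscar-/- the pairs of sham and DMM were 1.76 and 2.13 TPM, then 1.86 and 1.47. Both WT DMM libraries were above the other 6, and in Oscar-/- cartilage the DMM library was above sham at 2 weeks and below it at 4 weeks. Adamts9 rose after DMM in WT by 1.09 on the log2 scale (SE 0.18, adjusted p = 0.00550 by edgeR) and differed by 0.03 in Oscar-/- (SE 0.18, adjusted p = 0.969 by edgeR). The response was lower in Oscar-/- by 1.07 (log2 difference -1.07, SE 0.25, adjusted p = 0.0379 by edgeR). After sham surgery Adamts9 was 0.75 above WT in Oscar-/- cartilage (SE 0.19, adjusted p = 0.0693 by edgeR), and 0.73 with adjusted p = 0.0341 without the TPM filter. The WT call was lost without the WT libraries of 2 weeks, with edgeR's adjusted p = 0.0549 without sham and 0.138 without DMM.

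Adamts15, another proteoglycanase gene, was at 0.07 TPM (sham) and 0.31 (DMM) in WT at 2 weeks, then 0.25 and 0.57 at 4 weeks, while the Oscar-/- pairs were 0.19 and 0.30 TPM, then 0.34 and 0.27. Both WT DMM libraries were above both WT sham libraries, while in Oscar-/- the surgeries overlapped. On these 10 to 44 counts per library and without the TPM filter Adamts15 rose after DMM in WT by 1.34 (log2, SE 0.37, adjusted p = 0.0453 by edgeR). That call was lost in 5 of the 8 fits that left out a library and in DESeq2 (adjusted p = 0.252). It was also lost in limma on log2(TPM + 1) (adjusted p = 0.180) and in edgeR without the week term (adjusted p = 0.286). In Oscar-/- the difference was 0.27 (SE 0.36, adjusted p = 0.853 by edgeR).

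Among the procollagen N-propeptidases Adamts2 (ENSMUSG00000036545, chr11:50602084-50807573) gave the most precise values, on 680 to 1461 counts. WT cartilage held 5.23 TPM after sham and 10.85 after DMM at 2 weeks, and 6.73 and 10.98 at 4 weeks. Oscar-/- cartilage held 8.01 (sham) and 7.63 TPM (DMM), then 7.86 and 7.48. The WT DMM libraries were the highest and the WT sham libraries the lowest at both weeks, with the 4 Oscar-/- libraries close together between them. Adamts2 rose after DMM in WT by 0.64 on the log2 scale (SE 0.08, adjusted p = 0.00138 by edgeR), a call kept in 13 of 14 alternatives and lost without the week term. In Oscar-/- it differed by 0.02 (SE 0.08, adjusted p = 0.940 by edgeR), and the response was lower in Oscar-/- than in WT by 0.62 (log2 difference -0.62, SE 0.12, adjusted p = 0.0196 by edgeR). After sham surgery Adamts2 was 0.33 higher in Oscar-/- than in WT (SE 0.08, adjusted p = 0.0706 by edgeR), and after DMM 0.29 lower (log2 difference -0.29, SE 0.08, adjusted p = 0.263 by edgeR).

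Adamts14, the second procollagen peptidase of the group, was at 0.44 TPM (sham) and 0.76 (DMM) in WT at 2 weeks, then 0.81 and 1.33 at 4 weeks. With Oscar deleted the sham and DMM values were 0.76 and 0.75 TPM, then 0.91 and 0.96. The DMM library was above sham in WT at each week, but the WT surgeries overlapped between weeks. The log2 difference in WT was 0.55 (SE 0.20, adjusted p = 0.150 by edgeR) and in Oscar-/- 0.13 (SE 0.20, adjusted p = 0.843 by edgeR). The difference between these responses, -0.42 (SE 0.29, adjusted p = 0.399 by edgeR), did not pass the threshold. Adamts14 had 51 to 95 counts per library, and the standard error of its WT difference was 0.20 against 0.08 for Adamts2.

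Adamts10, whose protein binds fibrillin, was the most abundant of the 10 genes (ENSMUSG00000024299, chr17:33524204-33553782). Its WT values were 11.80 TPM (sham) and 16.33 (DMM) at 2 weeks, and 19.48 and 24.04 at 4 weeks. Its Oscar-/- values were 17.14 TPM (sham) and 13.70 (DMM) at 2 weeks, and 21.85 and 17.64 at 4 weeks. At each week the DMM library was above sham in WT and below it in Oscar-/-. Neither change passed the threshold: the log2 difference was 0.28 in WT (SE 0.09, adjusted p = 0.0931 by edgeR) and -0.29 in Oscar-/- (SE 0.09, adjusted p = 0.240 by edgeR). Their difference did, with a response lower in Oscar-/- by 0.57 (log2 difference -0.57, SE 0.12, adjusted p = 0.0291 by edgeR). Adamts10 was also higher at 4 than at 2 weeks, by 0.28 on the log2 scale (SE 0.06, adjusted p = 0.0103 by edgeR).

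Adamts12, a protease of cartilage oligomeric matrix protein, went in WT from 0.04 TPM (sham) to 0.35 (DMM) at 2 weeks and from 0.07 to 0.23 at 4 weeks. Sham and DMM in Oscar-/- gave 0.10 and 0.14 TPM, then 0.18 in both. Both WT DMM libraries were above the other 6 and both WT sham libraries below them. On 5 to 43 counts and without the TPM filter it rose after DMM in WT by 2.39 on the log2 scale (SE 0.49, adjusted p = 0.00726 by edgeR), and differed by 0.35 in Oscar-/- (SE 0.46, adjusted p = 0.853 by edgeR). The difference between the responses was -2.04 (SE 0.69, adjusted p = 0.0981 by edgeR). Neither limma on log2(TPM + 1) nor edgeR without the week term called the rise in WT (adjusted p = 0.137 and 0.0780). DESeq2 did not make the WT call (adjusted p = 0.0694), and in edgeR it was lost without the WT sham library (0.0793) or the WT DMM library (0.356) of 2 weeks.

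Adamts17 was the lowest of the 10 genes, at 0.03 TPM (sham) and 0.24 (DMM) in WT at 2 weeks and 0.06 and 0.14 at 4 weeks, and at 0.12 (sham) and 0.09 TPM (DMM), then 0.14 and 0.09, in Oscar-/-. These values stood on 3 to 17 counts per library, with 3 in WT sham at 2 weeks. The transcript length that RSEM assigned to Adamts17 moved between 2421 and 6416 bases from library to library, and with it the TPM per count. In Oscar-/- at 2 weeks the log2 ratio of DMM to sham was -0.42 on TPM but 1.17 on TMM-scaled CPM, from 4 and 10 counts. No comparison of Adamts17 passed the threshold in edgeR without the filter, where the WT difference was 1.39 (SE 0.68, adjusted p = 0.287).

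The first comparison asked what DMM surgery did in WT cartilage. Of the 6 expressed ADAMTS genes, 2 rose and none fell: Adamts9 and Adamts2, beside 4.87% of all expressed genes called and 4.36% called higher by edgeR. Without the filter 6 of the 10 genes rose (Adamts1, Adamts2, Adamts4, Adamts9, Adamts12 and Adamts15), beside 3.84% of 17354 genes called higher, and the median log2 difference of all 10 was 0.86, against -0.0044 for all genes in that fit. That fit also called 2 of the 10 higher in Oscar-/- after sham (Adamts1 and Adamts9, beside 2.06%) and 4 with a lower response in Oscar-/- (Adamts1, Adamts2, Adamts9 and Adamts10, beside 3.32%). On TPM both WT DMM libraries were above both WT sham libraries for 7 of the 10 genes, against 21.4% of expressed genes, and on TMM-scaled CPM for 9 (19.0%), with Adamts5 as the exception. In bulk tissue, more cells of a type that makes an RNA and more of that RNA per cell cannot be told apart.

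In Oscar-/- cartilage none of the 6 expressed genes passed the threshold after DMM in edgeR, DESeq2 or limma, beside 0.112%, 0.582% and 0.75% of genes called by these tools, and 1 of the 6, Adamts10, had an unadjusted p under 0.05. The estimates ran from -0.29 for Adamts10 to 0.13 for Adamts14. Without the filter edgeR again called none of the 10 (2 at an unadjusted p under 0.05), beside 0.899% of genes. On TPM both DMM libraries were above both sham libraries only for Adamts4 (7.39% of expressed genes) and below them for Adamts1, Adamts2 and Adamts17 (22.1%). On TMM-scaled CPM they were above for Adamts4 and Adamts14 (18.4%) and below for Adamts1 (14.3%). Between the genotypes after DMM surgery again none passed in edgeR or limma, which called 0.0479% and 0.0638% of genes. In edgeR 2 had an unadjusted p under 0.05, Adamts2 and Adamts10. DESeq2 called 0.431% of genes there but gave no adjusted p for any of the 6, so it could not call them. Both Oscar-/- DMM libraries were below both WT DMM libraries for 6 of the 10 genes on TPM, against 37.4% of expressed genes, and on TMM-scaled CPM for 3 (Adamts2, Adamts4 and Adamts12), against 17.3%. After sham surgery 1 of the 6 expressed genes was called higher in Oscar-/-, Adamts1, beside 2.18% of genes called and 1.99% called higher. In edgeR all 6 estimates were above 0 there, and 5 had an unadjusted p under 0.05. Both Oscar-/- sham libraries were above both WT sham libraries for 6 of the 10 genes on TPM, against 16.5% of expressed genes, and for 8 on TMM-scaled CPM, against 17.3%.

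The test of whether the response to DMM differed between the genotypes called 3 of the 6 expressed genes, Adamts2, Adamts9 and Adamts10, all with a lower response in Oscar-/-, beside 5.24% of genes called and 3.83% called lower. In the fit without the filter the median of all 10 was -0.95, against -0.02 for all genes. With the filter Adamts1 was close to the threshold (-0.88, SE 0.23, adjusted p = 0.0509 by edgeR). The WT sham libraries enter this comparison, the DMM response in WT and the genotype difference after sham, so the 3 sets of values share them and are not separate evidence. The 3 calls were sensitive to single libraries. None of the 6 genes was called without WT DMM or Oscar-/- sham of either week, 1 without Oscar-/- DMM of 2 weeks (Adamts9), and none in limma on log2(TPM + 1), which called 2.79% of genes, while DESeq2 called Adamts2 and Adamts10 beside 3.54%.

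**Figure D2:**
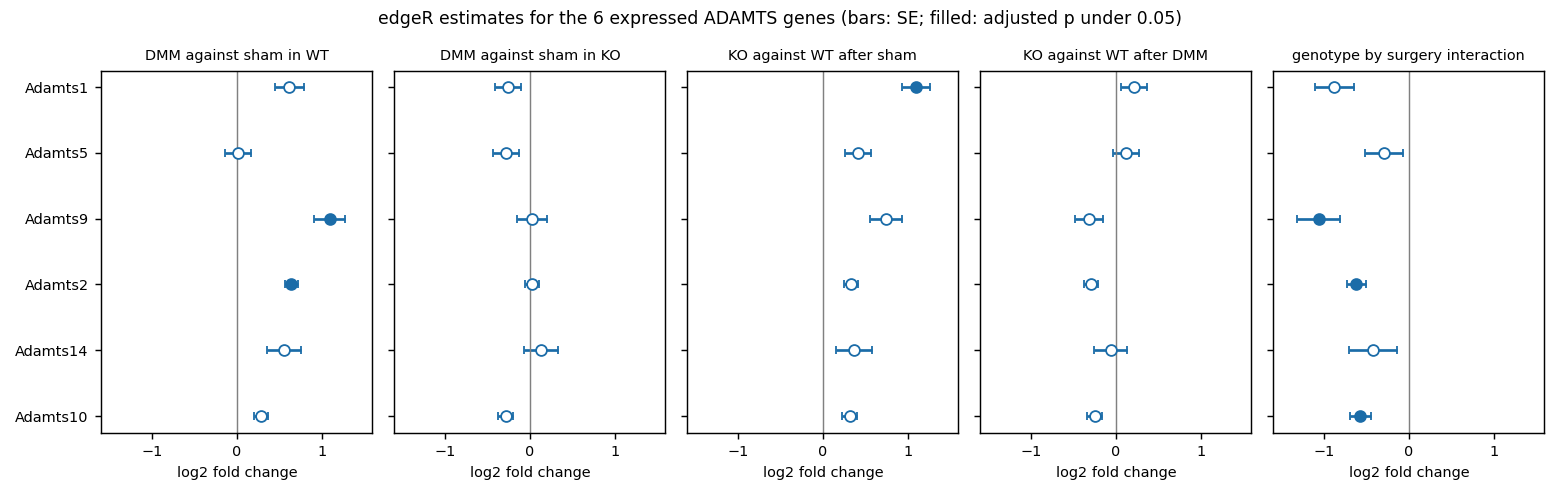
Log2 fold changes of the 6 expressed ADAMTS genes from edgeR in 5 comparisons over 8 libraries, with bars for the standard error and filled points for an adjusted p under 0.05. Filled points are Adamts9 and Adamts2 for DMM in WT, Adamts1 for genotype after sham, and Adamts9, Adamts2 and Adamts10 for the interaction.

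Within each week the response in Oscar-/- minus that in WT, DIF, was taken from the log2 ratios of TPM, the measure used in the study. DIF was below 0 for 10 of 10 ADAMTS genes at both weeks. The median was -1.10 at 2 weeks and -1.16 at 4 weeks, against -0.41 and -0.22 for all expressed genes, of which 17.4% and 25.0% were above 0. On TMM-scaled CPM all 10 were also below 0 at both weeks, with medians of -0.79 and -1.07. The medians depended on single libraries and on added values: with the WT sham library of 4 weeks in place of that of 2 weeks the median at 2 weeks was -0.52, and replacing WT sham or Oscar-/- sham at 4 weeks gave -1.79 and -0.77. With 1 TPM added they were -0.36 and -0.40. Such a replacement turned DIF above 0 for Adamts14 (0.07 at 2 weeks and 0.17 at 4 weeks), Adamts15 (0.35 at 2 weeks) and Adamts5 (0.15 at 4 weeks). DIF of Adamts2 was -1.12 ± 0.09 (counting SE) at 2 weeks and -0.78 ± 0.10 at 4 weeks, and that of Adamts9 was -1.49 ± 0.21 and -1.24 ± 0.23. For the low genes counting error was wide: Adamts12 had -2.64 ± 0.91 and -1.72 ± 0.83, and Adamts17 -3.42 ± 1.24 and -1.86 ± 1.0. The smallest DIF in size was that of Adamts5, -0.60 ± 0.17 and -0.53 ± 0.17.

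**Figure D3:**
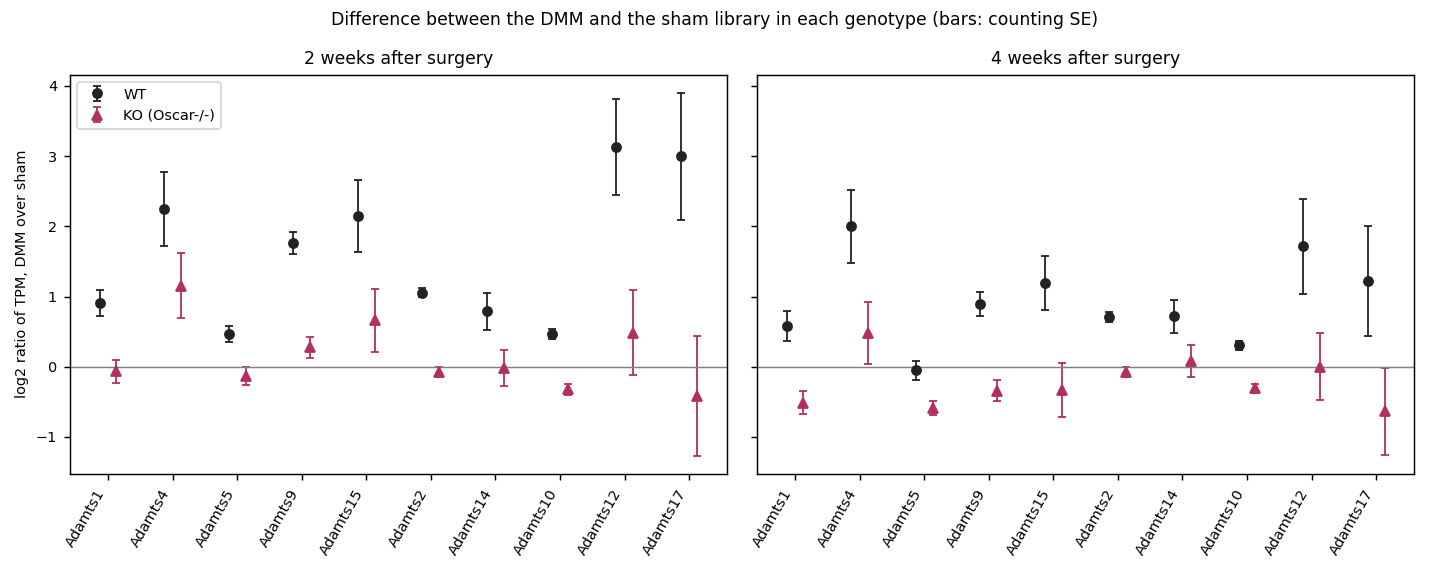
Log2 ratio of TPM between the DMM and the sham library for each of the 10 ADAMTS genes at 2 weeks (left) and 4 weeks (right), with circles for WT, triangles for Oscar-/- and bars for the counting standard error only. The WT point lies above the Oscar-/- point for 10 of 10 genes at each week, and 9 of 10 WT points at 4 weeks lie above 0.

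At 2 weeks the WT ratio was above 0 for 10 of 10 genes, beside 85.7% of all expressed genes, with a median of 1.41 against 0.35. At 4 weeks it was above 0 for 9, beside 59.0% of all expressed genes, with a median of 0.81 against 0.05. In Oscar-/- the medians were -0.04 and -0.32, against -0.03 and -0.15. The study's selection took genes that were higher after DMM in WT, lower in Oscar-/- and below the lower quartile of DIF, and expressed. Of the 6 expressed ADAMTS genes 4 met it at 2 weeks (20.6% of expressed genes), 4 at 4 weeks (21.6%) and 3 at both weeks (10.1%), namely Adamts1, Adamts2 and Adamts10.

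Adamts1, Adamts2 and Adamts9 hold 5 of the 6 surgery and genotype calls among the expressed genes, and their RefSeq promoters (GRCm38.p6) are printed to show what sequence lies before each. RefSeq promoters matched 6 of the 10 genes. Each is the 250 bases before the annotated start, 5′ to 3′ on the strand of the gene, with matches to the motifs searched in capitals.
Adamts1: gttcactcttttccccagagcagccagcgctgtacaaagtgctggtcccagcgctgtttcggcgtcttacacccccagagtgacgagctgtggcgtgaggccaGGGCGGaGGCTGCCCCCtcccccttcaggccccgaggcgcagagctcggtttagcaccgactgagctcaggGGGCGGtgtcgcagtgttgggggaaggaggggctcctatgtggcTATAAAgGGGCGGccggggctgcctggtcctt
Adamts2: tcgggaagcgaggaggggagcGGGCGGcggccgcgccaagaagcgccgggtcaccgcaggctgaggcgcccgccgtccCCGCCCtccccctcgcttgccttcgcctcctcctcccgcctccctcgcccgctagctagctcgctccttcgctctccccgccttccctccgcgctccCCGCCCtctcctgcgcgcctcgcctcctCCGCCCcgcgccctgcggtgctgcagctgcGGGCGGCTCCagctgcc
Adamts9: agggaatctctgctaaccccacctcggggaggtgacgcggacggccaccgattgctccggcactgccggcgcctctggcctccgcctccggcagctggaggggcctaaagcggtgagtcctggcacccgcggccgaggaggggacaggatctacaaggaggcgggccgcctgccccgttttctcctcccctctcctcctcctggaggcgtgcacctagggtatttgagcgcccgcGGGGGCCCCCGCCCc

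These lie at chr16:85803114-85803363 (minus strand), chr11:50601835-50602084 (plus) and chr6:92943535-92943784 (minus). Their GC content was 65.6%, 78.0% and 71.2%, against a median of 52.4% over 32851 promoters. Motifs of 8 kinds were searched on both strands, and matches may overlap each other. Adamts1 held 3 matches to the SP1 motif GGGCGG, Adamts2 held 5 and Adamts9 held 1, where 32.7% of all promoters held at least 1. Each held 1 match to an NF-kB pattern (GGG and CC with 5 free bases between), which 45.8% of promoters held, and in Adamts2 and Adamts9 it overlapped an SP1 match. Adamts1 alone of the 3 held the TATA box motif TATAAA, found in 12.4% of promoters. None of the 3 windows held the AP-1 motif TGANTCA, which 6.75% of promoters held, or the cyclic AMP response element TGACGTCA, held by 1.55%. They also had no match to the RUNX motif TGTGGT (14.05% of promoters), to the E-box motif CACGTG (6.02%) or to the CCAAT box, spelled CCAAT (33.85%). A match describes letters only.

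Markers of several other cell types moved along with the ADAMTS genes, and those of some went the other way. After DMM in WT edgeR called 9 of 11 expressed fibroblast markers, 9 of 10 endothelial markers, 4 of 11 osteoblast and osteocyte markers and 2 of 8 pericyte and smooth muscle markers higher, and 3 of 9 skeletal muscle markers lower. Of 13 expressed chondrocyte markers 1 was higher, and of 9 neutrophil markers 1 was lower. The median log2 difference was 0.28 for macrophage markers, 0.69 for adipocyte markers and -0.28 for erythroid markers. The summed level of the 12 fibroblast markers in WT was 0.0619% (sham) and 0.108% (DMM) of all TPM at 2 weeks and 0.0558% and 0.0986% at 4 weeks. The pairs in Oscar-/- were 0.107% and 0.0814%, then 0.0868% and 0.0630%. From high to low the fibroblast markers, the osteoblast and osteocyte markers and the 10 ADAMTS genes summed each ran WT DMM, Oscar-/- sham, Oscar-/- DMM and WT sham at each week, the ADAMTS genes at 0.00360%, 0.00325%, 0.00291% and 0.00210% at 2 weeks. Skeletal muscle markers were at 0.0241% in WT sham at 2 weeks and at 0.00614% to 0.0151% in the other 7 libraries. After DMM in Oscar-/- 1 of 13 chondrocyte markers was called lower by edgeR, with 10 of 13 at an unadjusted p under 0.05, a median of -0.85 and 0 of 13 above 0. Osteoblast and osteocyte markers had a median of -0.34 there, with 0 of 11 above 0, and fibroblast markers a median of 0.01. In the interaction 7 of 11 fibroblast, 5 of 10 endothelial, 5 of 11 osteoblast and osteocyte, 3 of 8 pericyte and 2 of 13 chondrocyte markers were lower. There 1 erythroid and 1 skeletal muscle marker were called higher, with 8 of 8 and 9 of 9 above 0 and medians of 0.63 and 0.95. All 9 neutrophil markers were above 0, with none called and a median of 0.25. Of all marker genes Tcf21, a fibroblast marker, was at 0 in every library. After sham surgery 4 fibroblast, 2 endothelial, 2 osteoblast and osteocyte, 2 chondrocyte and 1 pericyte markers were higher in Oscar-/- than in WT, and 1 skeletal muscle marker was lower. Col3a1, Hapln1, Col2a1, Acan and Comp are counted both as markers and among the substrates. The part of these cells in the ADAMTS values was not tested.

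**Figure D4:**
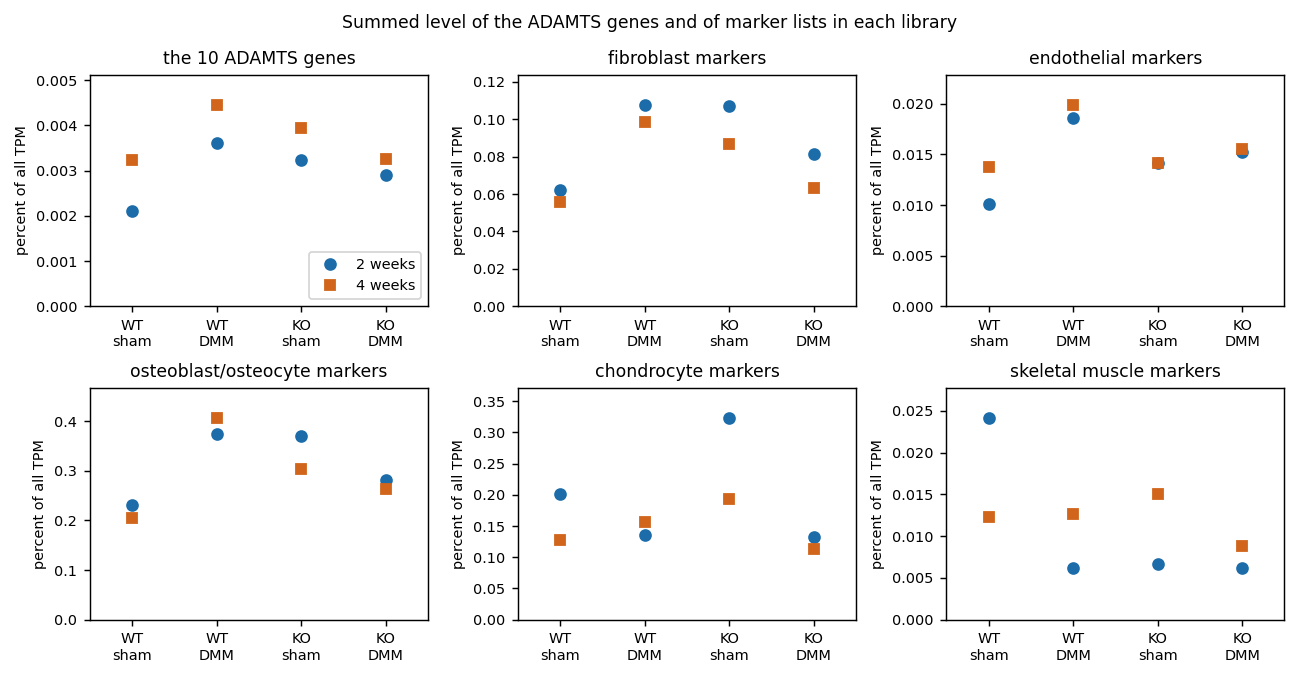
Summed TPM as a percent of all TPM (linear axes that start at 0) for the 10 ADAMTS genes and 5 marker lists, with circles for 2 weeks and squares for 4 weeks, each point 1 library. Fibroblast markers and the ADAMTS genes are highest in WT DMM and lowest in WT sham at 2 weeks, and chondrocyte markers are highest in Oscar-/- sham at 2 weeks, 0.323%.

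The substrates and partners of these proteases give their setting. Of 8 expressed genes for fibrillar procollagens and their C-terminal processing, 6 rose after DMM in WT. The 3 with the lowest p were Col3a1 (log2 2.74, SE 0.26, adjusted p = 0.000281 by edgeR), Col1a2 (1.35, SE 0.14) and Pcolce, an enhancer of C-propeptide removal (0.98, SE 0.12), while Pcolce2 fell. Their median log2 difference was 1.03. In Oscar-/- the median was 0.06, and the response was lower in Oscar-/- for 5, with Col1a2 at -1.27 (SE 0.19, adjusted p = 0.0104 by edgeR) and Bmp1, which removes the C-propeptide, at -0.87 (SE 0.13). Of 8 expressed microfibril genes 4 rose in WT, with Fbn1, which encodes fibrillin-1, at 1.14 (SE 0.17, adjusted p = 0.00310 by edgeR), and Fbn1 alone had a lower response in Oscar-/- (-1.13, SE 0.23, adjusted p = 0.0267 by edgeR).

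After DMM in WT fewer of the proteoglycan genes were called. Of 5 expressed proteoglycan substrates and partners 1 rose after DMM in WT, Bgn, which encodes biglycan (0.57, SE 0.10, adjusted p = 0.0103 by edgeR), and their median was -0.01. In Oscar-/- their median was -0.83, with Hapln1, the cartilage link protein, called lower (-0.97, SE 0.14, adjusted p = 0.0365 by edgeR). After sham surgery 3 of the 5 were higher in Oscar-/- than in WT (Hapln1, Bgn and Vcan), as were 3 of the 8 procollagen genes. The response was lower in Oscar-/- for 3: Bgn (-0.80, SE 0.15), Hapln1 (-0.96, SE 0.19), and Vcan, versican (-0.70, SE 0.17, adjusted p = 0.0446 by edgeR). Of 9 inhibitors, clearance receptors and activators of ADAMTS proteases, all expressed, 3 rose in WT: Timp1 (0.93, SE 0.13), Timp2 (0.52, SE 0.09) and Lrp1, an endocytic receptor that clears aggrecanases (0.41, SE 0.09, adjusted p = 0.0326 by edgeR). The response was lower in Oscar-/- for Timp2, Lrp1 and the proprotein convertase gene Pcsk6. Of the same 9 genes 1 was called lower after DMM in Oscar-/-, and 2 were higher in Oscar-/- than in WT after sham surgery. Of the 9 other ADAMTS protease genes 3 were expressed, and Adamts7 rose in WT (0.95, SE 0.24, adjusted p = 0.0475 by edgeR). Of 3 expressed ADAMTS-like genes Adamtsl4 had a lower response in Oscar-/- (-1.13, SE 0.27, adjusted p = 0.0406 by edgeR).

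Between the weeks Adamts10 was higher and Adamts2 lower at 4 weeks, 2 of 6 expressed genes beside 22.1% of all genes called. The log2 difference of Adamts2 was -0.22 (SE 0.06, adjusted p = 0.0206 by edgeR), and in limma on log2(TPM + 1) it was 0.07. The direction of Adamts2 between weeks therefore depended on the scale, while that of Adamts10 (0.28) did not turn under the alternatives run.

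Across the 8 libraries, on log2 TMM-scaled CPM, the levels of the ADAMTS genes had a Pearson r above 0 in 41 of 45 pairs, with a median of 0.52. The highest was 0.91 between Adamts2 and Adamts9, and the 4 negative values all involved Adamts5. The expressed genes most like Adamts2 were Nbl1 (r = 0.995, Spearman rho = 0.976), Maml3 (r = 0.987) and Aplnr (r = 0.984). For Adamts4 they were Ahr (r = 0.978), Ak5 (r = 0.977) and Sfrp2 (r = 0.976), and for Adamts5 Dnajc3 (r = 0.966), Gmfb (r = 0.961) and Rspo2 (r = 0.943). These are descriptions over 8 libraries that share surgery, genotype, lane and cell mixture, chosen as the highest among 12538 genes. Adamts4 stood on 9 to 44 counts, and its neighbours were low too. Ahr ran from 0.49 to 1.11 TPM, Ak5 from 0.3 to 1.68 and Sfrp2 from 0.21 to 1.68. The share of r values above 0 among other pairs of genes was not taken.

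**Figure D5:**
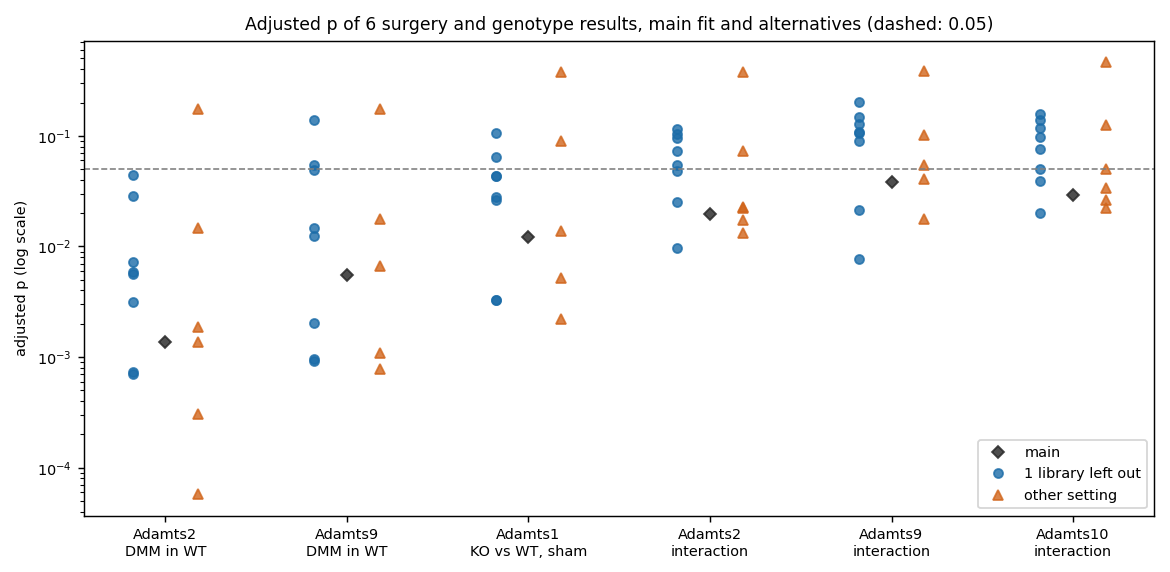
Adjusted p (log axis) of 6 surgery and genotype results of ADAMTS genes in the main edgeR fit (diamonds), in fits that left out 1 library (circles) and under other settings (triangles), with a dashed line at 0.05. Adamts2 after DMM in WT is above the line under 1 of 14 alternatives, and each of the 3 interaction results is above it under at least 7.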

How the data were processed

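RNA-seq of 8 mouse articular cartilage libraries was used, each combining 10 cartilages. By the study's methods the authors trimmed with BBDuk before alignment (STAR 2.6.0a) and quantification (RSEM 1.2.17), after quality control in FastQC 0.11.8, with the versions taken from the processing notes of the submitters. Those notes give a human build, whereas the study's methods name GRCm38 and the identifiers are those of mouse. The authors deposited RSEM expected counts (estimated, not always whole) per gene without normalization. They also deposited TPM, scaled by RSEM for transcript length and library total. The strand setting of the counting is not given in the sources used here.

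Genes were named from GENCODE M21, which matched 52403 of 52636 identifiers, 21819 of them protein-coding. Expected counts were rounded, scaled by TMM and fitted with edgeR 4.0.16 (R 4.3.3), quasi-likelihood, with a mean for each genotype and surgery plus a term for week. The 2 weeks stand in for replicates and leave 3 residual degrees of freedom. The week term takes out the shift that all groups share. The p-values therefore measure how unlike the groups were in their change between weeks, not a spread between animals. The quasi-likelihood fit also draws the spread of each gene towards that of other genes. Its tests thus rest on more than the 3 residual degrees of freedom. The fit without the filter draws on 17354 genes. For Adamts1 after DMM in WT the log2 difference was 0.62 with the filter and 0.61 without. The unadjusted p by edgeR was 0.0036 and 0.0022. The labels do not say that replicate animals were kept apart. P-values were Benjamini-Hochberg adjusted over 12538 genes with TPM above 1 in at least 1 library, at a threshold of 0.05. Each SE given with an edgeR value was computed from the log2 difference and its test statistic. The function was tested on simulated data. Ratios within a week and DIF were taken on TPM, with a counting SE from the expected counts that covers counting error only. Promoters came from RefSeq and coding sequences from GENCODE M21. Alternatives were DESeq2 size factors, DESeq2 1.42.0, limma 3.58.1 on log2(TPM + 1), other filters, no week term, each library left out, and for DIF other added values and scalings. For the genes under the filter, the fits without libraries, with DESeq2, with limma and without the week term were chosen after seeing the data. The ADAMTS genes and gene lists were chosen with earlier results of these data known. All 10 ADAMTS genes are named, with up to 3 genes of lowest p per other list and comparison, and the 3 genes of highest Pearson r for Adamts2, Adamts4 and Adamts5. An overlap between annotated genes is not reported here.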

Additional observations from a re-analysis of the deposited data

Results flagged for a closer look

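The response to DMM surgery differed between the genotypes, by the test of the difference itself in edgeR, for 3 genes. The log2 difference of Oscar-/- minus WT was -0.57 for Adamts10, -1.07 for Adamts9 and -0.62 for Adamts2. These calls depend on single libraries, as given with the interaction.

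For 4 genes both weeks went up after DMM in WT and down in Oscar-/- on TPM, and the difference in this form was not tested. With DIF below the lower quartile as well, 10.1% of expressed genes had this pattern at both weeks. The Oscar-/- ratio of Adamts1 was -0.06 ± 0.17 (counting SE) at 2 weeks and -0.51 ± 0.16 at 4 weeks. Those of Adamts2 were -0.07 ± 0.07 at both weeks. For Adamts10 they were -0.32 ± 0.08 and -0.31 ± 0.06, and for Adamts17 -0.42 ± 0.85 and -0.64 ± 0.63. The differences of the log2 ratios (DIF) were -0.98 at 2 weeks and -1.09 at 4 weeks for Adamts1. They were -1.12 and -0.78 for Adamts2, -0.79 and -0.61 for Adamts10, and -3.42 and -1.86 for Adamts17. On TMM-scaled CPM the Oscar-/- ratio of Adamts2 was 0.07 at 4 weeks, against -0.07 on TPM, and that of Adamts17 was 1.17 at 2 weeks, against -0.42 on TPM, so the opposite directions of these 2 genes depend on the scale.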

How the results depend on the processing

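With 1 library per condition and week, a call rests on 2 libraries a group, and the levels of Adamts4, Adamts12, Adamts15 and Adamts17 rest on few counts. The count of ADAMTS genes called after DMM in WT was 2, and became 6 without the TPM filter, 1 with TPM above 1 in every library, where fewer of the genes were tested, and 0 without the week term. It ran from 1 (without WT sham or WT DMM of 2 weeks) to 3 with a library left out. The interaction count of 3 became 0 in limma and without the week term, and ran from 0 (without WT DMM or Oscar-/- sham of either week) to 3. The sham count of 1 became 2 without the filter, and 0 with TPM above 1 in every library, in limma and without the week term, and ran from 0 (without Oscar-/- sham of either week) to 2 (without WT sham of 4 weeks or Oscar-/- DMM of either week). The count between weeks, 2, became 1 in DESeq2 and in limma and ran from 0 (without Oscar-/- DMM of 2 weeks) to 3. DMM in Oscar-/- and genotype after DMM stayed at 0 in every setting run. For genotype after DMM, DESeq2 gave no adjusted p for the expressed ADAMTS genes, so its 0 is not a test result. Adamts1, at 0.92 TPM in WT sham of 2 weeks, was not tested with TPM above 1 in every library. The sham count of 0 in that setting is therefore not a failed test of Adamts1. Without the filter the WT calls of Adamts4, Adamts12 and Adamts15 were lost in limma and without the week term. The cause of these shifts was not tested unless named.

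No paired analysis was possible because the labels give no replicate numbers. The week took the place of a replicate block, and without it (no replicate block) edgeR's adjusted p was 0.173 for Adamts2 and 0.173 for Adamts9 after DMM in WT, with 0 of the ADAMTS genes called. Over all alternatives the adjusted p ran from 5.78e-05 to 0.173 for Adamts2 and from 0.000778 to 0.173 for Adamts9 in that comparison. In the interaction it ran from 0.00975 to 0.377 for Adamts2, from 0.00768 to 0.382 for Adamts9 and from 0.0202 to 0.462 for Adamts10, and for Adamts1 after sham from 0.00222 to 0.375.

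The median DIF of -1.10 at 2 weeks became -0.36 with 1 TPM added and ran from -1.38 to -0.52 with the library of the other week in place of 1 library. That of -1.16 at 4 weeks became -0.40 with 1 TPM added and ran from -1.79 (WT sham replaced) to -0.77 (Oscar-/- sham replaced).

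Signs turned as follows, for values that were not called unless said. After DMM in WT, Adamts5 was -0.00155 without the filter and -0.00253 in DESeq2. In limma, Adamts2 was -0.063 and Adamts9 -0.015 after DMM in Oscar-/-, Adamts5 was -0.039 between genotypes after DMM, and between weeks Adamts1 was 0.136, Adamts2 (called in edgeR) 0.069, Adamts9 0.0049, Adamts4 0.036, Adamts12 0.014 and Adamts17 -0.0136. In DESeq2 Adamts17 was 0.055 after DMM in Oscar-/- and Adamts12 0.024 between weeks.

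With a library left out, the log2 values that turned sign ran over these ranges. After DMM in WT, Adamts5 ran from -0.249 to 0.210. After DMM in Oscar-/-, Adamts2 ran from -0.0068 to 0.054, Adamts9 from -0.193 to 0.235, Adamts12 from -0.039 to 0.847, Adamts14 from -0.055 to 0.287, Adamts15 from -0.221 to 0.830 and Adamts17 from -0.699 to 1.05 (0.400 without Oscar-/- DMM of 4 weeks). In the interaction Adamts5 ran from -0.535 to 0.0071, and after sham Adamts17 from -0.028 to 1.74. Between genotypes after DMM, Adamts5 ran from -0.100 to 0.358, Adamts14 from -0.223 to 0.112, Adamts15 from -0.897 to 0.153 and Adamts17 from -0.945 to 0.363 (0.0407 without Oscar-/- DMM of 4 weeks). Between weeks, Adamts4 ran from -0.153 to 0.051, Adamts5 from -0.096 to 0.158, Adamts12 from -0.282 to 0.385 and Adamts17 from -0.294 to 0.541, with -0.0532 and -0.0356 without WT sham of 2 and 4 weeks and -0.286 without Oscar-/- sham of 4 weeks. DIF ran from -1.61 to 0.073 for Adamts14 and from -2.37 to 0.349 for Adamts15 at 2 weeks, and from -1.03 to 0.145 for Adamts5 and from -1.52 to 0.169 for Adamts14 at 4 weeks.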
